A study of Mus musculus and Homo sapiens with 20 samples.

Results

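HPC-7 is a mouse blood progenitor line that was grown from embryonic stem cells carrying the LIM homeobox gene Lhx2 and that lives on stem cell factor, the ligand of the receptor tyrosine kinase KIT. Treated cells (HSP90i) received 50 nM of NVP-AUY922, a drug that occupies the ATP pocket of the HSP90 chaperones, for 16 h. Their counterparts are labelled Control, and the count table names their columns for DMSO, the solvent. No genotype, transgene or other agent is given for either group. Total RNA was sequenced in 3 HSP90i and 3 Control libraries, 6 of the 20 samples of the series. The members were all genes of these libraries with enough counts to test, 11703 of the 43626 genes in the table, of which 24978 had no count in any of the 6 libraries. Mouse embryonic fibroblasts (MEF, 3 HSP90i libraries at 200 nM for 16 h and 3 Control libraries) served only to show where the HPC-7 response differed. Nothing in the labels states that the replicates came from separate cultures, and the p-values then reflect only how far these libraries scatter, which may be technical.

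HSP90 is an abundant chaperone that completes the folding of a set of client proteins, among them the kinases KIT and AKT that carry the stem cell factor signal, and steroid receptors. It also holds the transcription factor HSF1 in check, and in many cell types its inhibitors release HSF1, which then turns on genes for HSP70 and other cytosolic chaperones. The KIT signal runs through the ERK and AKT pathways to genes of growth, division and survival, and AKT keeps the FOXO transcription factors out of the nucleus.

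Library totals were 13844639, 10131491 and 11064750 counts in HSP90i replicates 1 to 3, against 16859394, 11628872 and 12103197 in Control replicates 1 to 3. Levels below are CPM, the usual depth-scaled counts, here after TMM scaling, given in the order of replicates 1, 2 and 3, and fold changes are log2 of HSP90i over Control ± SE (n = 3 each). They are not corrected for transcript length, so they are compared between libraries and not between genes. HSP90i replicate 2 lay nearest to the Control libraries. Its root mean square log2 distance to the Control libraries was 0.900 to 0.914, against 1.12 to 1.14 for HSP90i replicates 1 and 3. On the first principal component, which held 91.0% of the variance, HSP90i libraries lay at 63.1, 38.7 and 64.8 and Control libraries at −55.0, −55.3 and −56.3. On the second component (3.31%) HSP90i libraries lay at −20.2, 11.7 and 10.8, so replicate 1 was the one apart there. HSP90i libraries lay 0.329 to 0.399 from each other, and Control libraries 0.234 to 0.246, so the treated group scattered more. Values without HSP90i replicate 2 are given wherever they move a called change by more than 1.5 times.

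The label was checked against markers of blood progenitors. The 9 progenitor markers summed to between 5560 and 6031 CPM in HSP90i libraries, against 3591 to 3620 CPM in Control libraries, and all 9 were detected. They did not move together: Kit had 2571, 2316 and 2679 CPM in HSP90i libraries and 982, 1013 and 965 CPM in Control libraries, Cd34 (log2 fold change of HSP90i over Control −2.60) and Lyl1 (−1.11) fell, and Gata2 (−0.13, edgeR adjusted p = 0.17) and Lmo2 (−0.046, 0.592) were not called. Lhx2, whose introduction made the line and which was chosen after its values were seen, stood at 294, 281 and 232 CPM in HSP90i libraries and 375, 399.6 and 411 CPM in Control libraries. The globin genes Hba-a1 and Hbb-bs, the haem enzyme gene Alas2 and the T cell gene Cd3e were at or near 0, as were the collagen genes Col1a1, Col1a2 and Col3a1. The 5 fibroblast markers summed to at most 0.392 CPM in HSP90i libraries and 0.529 CPM in Control libraries. Fap, a gene of the longer fibroblast list outside these 5, was expressed. In the scaling shared with the MEF libraries, it had 278, 338 and 339 CPM in HSP90i libraries and 379, 370 and 369 CPM in Control libraries. MEF libraries had at most 1.23 CPM of it. In the fit of HPC-7 alone Fap was called lower (log2 fold change of HSP90i over Control −0.22, edgeR adjusted p = 0.0348).

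HSP90 inhibition moved most of the measured transcriptome of these cells. At an adjusted p of 0.05 (Benjamini-Hochberg) in the quasi-likelihood test of edgeR, 8557 of 11703 genes (73.1%) were called, 4273 higher (36.5%) and 4284 lower (36.6%) in HSP90i. These shares are the background against which every count of a gene list below is to be read. At least 2-fold changes were called in 26.2% of genes, 1464 higher (12.5%) and 1604 lower (13.7%), and at least 4-fold changes in 407 higher (3.48%) and 411 lower (3.51%). The HSP90i and Control values did not overlap in 9059 genes (77.4%). The genes named below were mostly chosen by a small p or, for the largest changes, by no overlap. Their lack of overlap therefore follows largely from the choice, and is to be read beside that share. The median log2 fold change of all tested genes was −0.0024. Without HSP90i replicate 2, 97.8% of the called genes were called again in the same direction, and none of them was called in the opposite direction under any alternative setting. In 65.0% of called genes HSP90i replicate 2 was the treated library nearest to the Control mean, against 22.3% for replicate 1 and 12.7% for replicate 3.

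**Figure D1:**
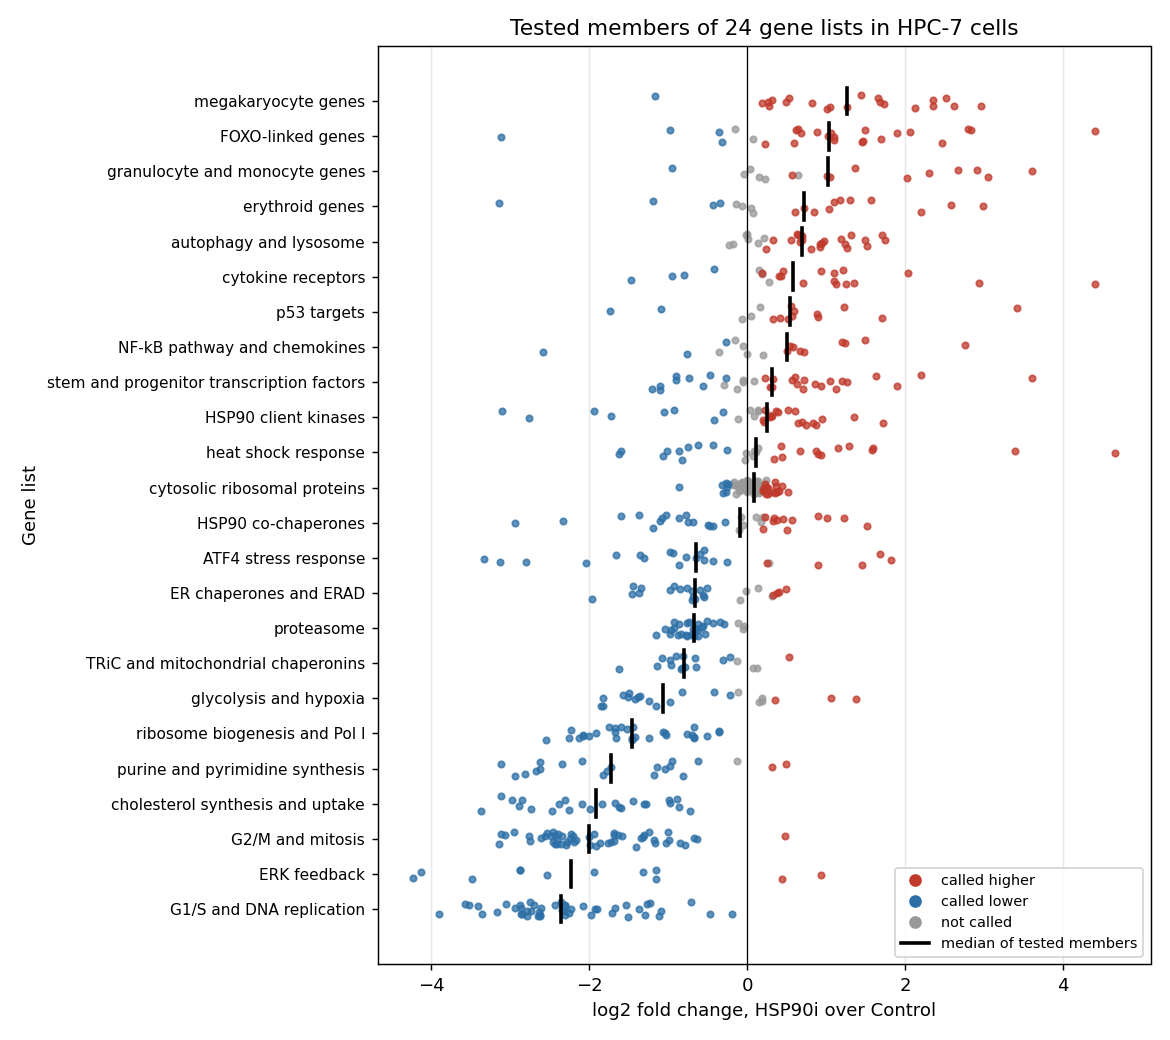
Each point is 1 tested gene of a list, placed at its log2 fold change in HSP90i over Control libraries (n = 3 each) and coloured by the call of edgeR's quasi-likelihood test, and black bars are list medians. Lists of DNA replication, mitosis, nucleotide, cholesterol and ribosome synthesis lie left of 0, and megakaryocyte, FOXO-linked and autophagy and lysosome genes lie mostly right of it.

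Cytosolic chaperones of the heat shock response split into genes that rose and genes that fell. Of 29 tested members 13 rose (44.8%) and 10 fell (34.5%), with a median log2 fold change of 0.11. Of all tested genes 36.5% rose and 36.6% fell. The HSP70 genes rose. Hspa1b (ENSMUSG00000090877), an inducible HSP70, had 16.4, 27.6 and 15.1 CPM in HSP90i libraries, against 0.706, 0.855 and 0.751 CPM in Control libraries, a log2 fold change of 4.66 ± 0.32 (SE, n = 3 each, edgeR quasi-likelihood adjusted p = 1.42e-06). Its near-identical neighbour Hspa1a had 1.38, 2.55 and 1.10 CPM in HSP90i libraries and 0.235, 0.0855 and 0.0835 CPM in Control libraries (3.40 ± 0.53, edgeR adjusted p = 0.000231, or 4.11 without Control replicate 1). Reads of the pair can be split between them, so each value is uncertain, but for both genes the lowest HSP90i library was above the highest Control library. The constitutive HSP70 gene Hspa8 (ENSMUSG00000015656, chr9:40801276-40805202 in GRCm38.p6, as all positions here) carried far more counts, with 3897, 3838 and 4175 CPM in HSP90i libraries and 1274, 1286 and 1381 CPM in Control libraries (1.60 ± 0.08, edgeR adjusted p = 2.64e-07).

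The HSP110 genes act as exchange factors of HSP70. Hsph1 had 237, 289 and 247 CPM in HSP90i libraries, against 139, 131 and 134 CPM in Control libraries, and rose by 0.94 ± 0.08, with HSP90i replicate 2 the highest library. Hspa4l rose by 1.28 ± 0.09. Dnajb4 and Dnajb1, genes of J-domain partners of HSP70, rose too: Dnajb4 had 66.1, 66.6 and 73.9 CPM in HSP90i libraries and 31.1, 33.4 and 28.9 CPM in Control libraries (1.15 ± 0.09), and Dnajb1 had 183, 160.5 and 156 CPM in HSP90i libraries and 120.1, 119.5 and 128 CPM in Control libraries (0.44 ± 0.08, edgeR adjusted p = 0.00054). None of these 4 genes overlapped between the groups. The HSP70 exchange factor gene Bag3 (0.14, edgeR adjusted p = 0.282), the chaperonin partner gene Hspe1 (0.081, 0.293), the J-domain gene Dnaja1 (0.11, 0.363) and 3 other members did not pass the test. Dnaja1 had 194, 266 and 233 CPM in HSP90i libraries and 217, 212 and 213 CPM in Control libraries, which overlap. Bag3 stood at 26.2, 25.0 and 20.4 CPM in HSP90i libraries and 20.8, 21.5 and 22.9 CPM in Control libraries, which overlap.

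The HSP90 genes themselves moved in opposite directions. Hsp90ab1 (ENSMUSG00000023944, chr17:45567778-45573261), the constitutive cytosolic form, had 5148, 4796 and 5086 CPM in HSP90i libraries and 3043, 3151 and 3233 CPM in Control libraries, and rose by 0.67 ± 0.08 (edgeR adjusted p = 2.22e-05). Hsp90aa1 (ENSMUSG00000021270, chr12:110691036-110696395), the stress-inducible cytosolic form, had 347, 563 and 401 CPM in HSP90i libraries and 689.9, 652 and 676 CPM in Control libraries, and changed by −0.62 ± 0.15 (edgeR adjusted p = 0.00345). HSP90i replicate 2 was the highest of the treated libraries for Hsp90aa1, still below every Control library, and without it the change was −0.86. The ER form Hsp90b1 fell (−0.76 ± 0.08) and so did the mitochondrial form Trap1 (−1.37 ± 0.10). Hsf1, the gene of the heat shock transcription factor, had 57.6, 57.5 and 42.6 CPM in HSP90i libraries and 63.7, 65.4 and 66.0 CPM in Control libraries (−0.31 ± 0.11, edgeR adjusted p = 0.0312). The call for Hsf1 was lost without HSP90i replicate 3 (−0.18, edgeR adjusted p = 0.0617) and without any single Control library (edgeR adjusted p = 0.0639 to 0.0827), in a range of 0.00161 to 0.0827 over all alternatives but the 1.5-fold test. Hsf4, a related factor best known from the lens, rose at a low level, with 2.83, 1.37 and 1.55 CPM in HSP90i libraries and 0.647, 0.257 and 0.501 CPM in Control libraries (1.995 ± 0.41).

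**Figure D2:**
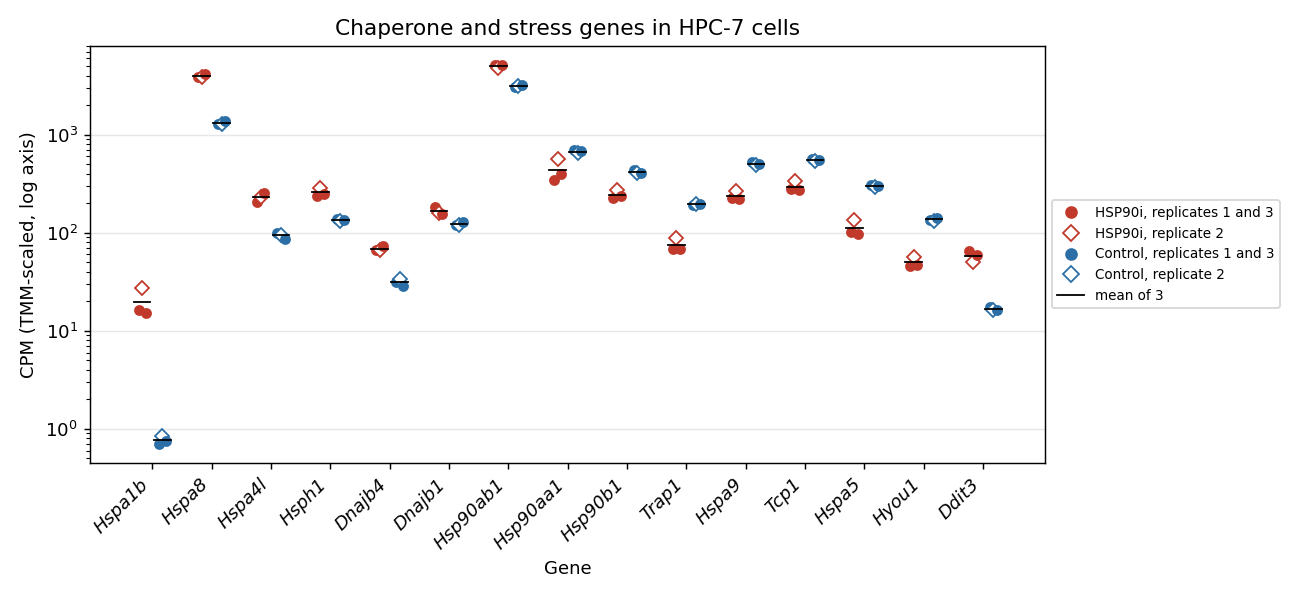
CPM on a log axis of chaperone and stress genes in 3 HSP90i libraries (red) and 3 Control libraries (blue), with open diamonds for replicate 2 and bars for the mean of 3. Hspa1b, Hspa8, Hsph1 and Hsp90ab1 lie higher in HSP90i, and Hsp90aa1, Hsp90b1, Trap1, Tcp1 and Hspa5 lie lower.

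The heat shock element is the binding site of HSF1, built from NGAAN units that face each other. Its core of 2 units (GAANNTTC or TTCNNGAA, both strands) was searched in RefSeq promoter windows of GRCm38.p6, from 250 bases before to 50 bases after each gene's start. It was in 17% of 27025 windows and 14% of the windows of tested genes. Here and below windows are counted by gene, each gene once, as a holder if any of its windows held the match. A window was at hand for 25 tested members of the heat shock list, of which 11 (44%) held the core. Of those 11 genes 6 rose, 2 fell and 3 were not called. In other chaperone lists, which share some members with this one, holders mostly fell. HSP90 co-chaperones held the core in 7 of 31 windows (22.6%), and 1 of those genes rose and 6 fell. TRiC and mitochondrial chaperonins held it in 5 of 15 windows (33.3%), and 4 genes fell and 1 was not called. The ER chaperone list held it in 0 of 20 windows. Windows of 2 genes that rose are shown in gene orientation with the matches in capitals: 1 match that starts 104 bases before the start of Hspa1b (chr17:34959189-34959488, minus strand), and 3 matches in Hsph1 (chr5:149636287-149636586, minus strand), the last 2 of which overlap in 1 run.
Hspa1b: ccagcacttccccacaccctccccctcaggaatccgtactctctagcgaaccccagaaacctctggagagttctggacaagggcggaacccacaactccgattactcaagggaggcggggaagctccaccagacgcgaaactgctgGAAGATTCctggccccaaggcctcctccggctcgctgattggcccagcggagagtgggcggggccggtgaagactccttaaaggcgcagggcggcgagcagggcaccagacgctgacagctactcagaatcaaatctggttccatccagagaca
Hsph1: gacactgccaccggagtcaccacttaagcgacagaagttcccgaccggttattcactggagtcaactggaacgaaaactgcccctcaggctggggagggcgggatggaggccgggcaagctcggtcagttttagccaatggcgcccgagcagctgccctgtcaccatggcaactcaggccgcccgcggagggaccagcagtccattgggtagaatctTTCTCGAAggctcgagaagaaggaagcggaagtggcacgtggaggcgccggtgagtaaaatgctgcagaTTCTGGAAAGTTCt

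HSP90 works with co-chaperones that load clients, set its ATPase or modify them. Of 34 tested members 12 rose (35.3%) and 16 fell (47.1%), against 36.5% and 36.6% of all tested genes. The folliculin gene Flcn, whose product acts in lysosomal nutrient sensing, had 406, 344 and 388 CPM in HSP90i libraries and 129, 135 and 134 CPM in Control libraries (1.52 ± 0.08). Ahsa2, a relative of the ATPase activator AHA1, rose by 0.89 ± 0.07. Ruvbl1 (−1.10 ± 0.08) and Nudc (−1.07 ± 0.09), which serve assembly of large complexes and of dynein, fell. Fkbp5, an immunophilin of steroid receptor complexes and itself a target of the glucocorticoid receptor, was chosen after its values were seen. It had 6.32, 18.9 and 6.48 CPM in HSP90i libraries and 77.2, 80.2 and 80.0 CPM in Control libraries, and fell (−2.94 ± 0.31, or −3.63 without HSP90i replicate 2).

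Most tested members of other chaperone systems fell, as the counts show. The cytosolic chaperonin TRiC folds actin and tubulin, and in its list with the mitochondrial chaperonins 14 of 18 tested members fell and 1 rose (median −0.80), Pfdn5 of the prefoldin complex that hands actin and tubulin to TRiC (0.54 ± 0.09, named after its values were seen). The TRiC subunit gene Tcp1 had 277, 340.0 and 269.8 CPM in HSP90i libraries, against 561, 535 and 551 CPM in Control libraries (−0.89 ± 0.09), and Cct3 fell (−0.98 ± 0.09). Hspa9, the mitochondrial HSP70, fell (−1.08 ± 0.09), and its chaperonin Hspd1, chosen after its values were seen, fell further (−1.63 ± 0.19). Of ER chaperones and degradation genes 17 of 25 fell and 4 rose (median −0.66). Hspa5 (chr2:34772090-34776529), the ER HSP70 known as BiP, had 101, 134 and 97.0 CPM in HSP90i libraries and 310.1, 292 and 302 CPM in Control libraries (−1.45 ± 0.12, edgeR adjusted p = 2.92e-06). Its exchange factor Hyou1 (−1.46 ± 0.09), the disulphide isomerase gene Pdia6 (−1.37 ± 0.08) and Sdf2l1 (−1.96 ± 0.15) fell too, with no overlap between the groups. The 4 that rose, named after their values were seen, serve the disposal of misfolded ER proteins: Herpud1 (0.33 ± 0.08), Syvn1 (0.38 ± 0.09), Derl1 (0.40 ± 0.08) and Sel1l (0.50 ± 0.07).

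Genes of the integrated stress response, which the factor ATF4 drives, moved in both directions. In all, 17 of 23 fell and 5 rose (median −0.65). Ddit3, the gene of the death-linked factor CHOP, had 65.6, 50.5 and 59.0 CPM in HSP90i libraries and 17.3, 16.2 and 16.1 CPM in Control libraries (1.82 ± 0.11). Ppp1r15a, a phosphatase subunit that ends the response, had 69.8, 48.8 and 59.5 CPM in HSP90i libraries and 18.5, 19.3 and 17.8 CPM in Control libraries (1.68 ± 0.13), and Ddit4, an inhibitor of mTORC1, rose by 1.45 ± 0.12. Enzymes of serine and one-carbon supply fell: Shmt2 had 56.7, 81.3 and 48.6 CPM in HSP90i libraries and 229, 265 and 274 CPM in Control libraries (−2.04 ± 0.16), and Psat1 fell (−0.97 ± 0.08). The leucine transporter gene Slc7a5, chosen after its values were seen, had 14.2, 37.2 and 9.96 CPM in HSP90i libraries and 171, 176 and 181 CPM in Control libraries (−3.12 ± 0.36, or −3.85 without HSP90i replicate 2). Of 32 proteasome genes 29 fell and 0 rose (median −0.68), among them the base subunit gene Psmc4 (−0.93 ± 0.08), the deubiquitinase gene Psmd14 (−0.97 ± 0.09) and the core subunit gene Psma4 (−0.87 ± 0.07).

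Most genes of the ERK feedback list fell. These genes are turned on by RAS and ERK downstream of KIT, and many of their products damp the same pathway. Of 12 tested members 10 fell and 2 rose, with a median log2 fold change of −2.23, or −2.59 without HSP90i replicate 2. The ETS factor gene Etv4 (ENSMUSG00000017724, chr11:101769747-101785310) had 0.872, 8.52 and 0.548 CPM in HSP90i libraries, against 57.0, 55.3 and 61.4 CPM in Control libraries. It changed by −4.23 ± 0.52 (edgeR adjusted p = 4.23e-05), and by −6.30 without HSP90i replicate 2, whose level was far above that of the other treated libraries. Etv5, its close relative, had 1.31, 15.6 and 1.83 CPM in HSP90i libraries and 98.9, 98.9 and 109.6 CPM in Control libraries (−4.13 ± 0.56, or −6.05 without that library). Dusp4, a phosphatase of ERK, had 14.3, 24.6 and 12.2 CPM in HSP90i libraries and 94.1, 97.3 and 102 CPM in Control libraries (−2.53 ± 0.20). Dusp6, another ERK phosphatase and chosen after its values were seen, had 5.16, 22.3 and 4.57 CPM in HSP90i libraries and 114, 118 and 115 CPM in Control libraries (−3.49 ± 0.43, or −4.57 without HSP90i replicate 2). The RAS pathway inhibitors Spred1 (−1.94 ± 0.21) and Spry2 (−1.15 ± 0.11) and the cyclin gene Ccnd1 (−2.88 ± 0.33, or −3.66 without that library) fell as well. In each of these 7 genes every HSP90i library was below every Control library, which for Etv4 and Etv5 was a condition of their choice. The 2 that rose, named after their values were seen, were the phosphatase gene Dusp2 (0.44 ± 0.12) and Phlda1 (0.94 ± 0.14).

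Kit, the receptor gene whose product is a classic HSP90 client, rose. It (ENSMUSG00000005672, chr5:75574987-75656722) had 2571, 2316 and 2679 CPM in HSP90i libraries, against 982, 1013 and 965 CPM in Control libraries, a change of 1.35 ± 0.08 (edgeR adjusted p = 5.93e-07). Of 32 tested genes of HSP90 client kinases 18 rose and 8 fell (median 0.25). The SRC family genes Src (1.72 ± 0.11) and Fyn (0.84 ± 0.07) rose, and the cell cycle kinase genes Plk1, Aurkb (−2.77 ± 0.25) and Cdk4 (−0.93 ± 0.09) fell. Jak1 stood at 347, 349.7 and 361 CPM in HSP90i libraries and 341, 346 and 344 CPM in Control libraries and did not pass the test (edgeR adjusted p = 0.592). These are RNA levels, and protein was not measured in these libraries.

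Genes of the MYC network moved in both directions. Myc (ENSMUSG00000022346, chr15:61985341-61990361) had 19.6, 62.6 and 16.5 CPM in HSP90i libraries, against 233, 244 and 244 CPM in Control libraries, and fell (−2.89 ± 0.40) (edgeR adjusted p = 9.13e-05). HSP90i replicate 2 kept more Myc than the other treated libraries and still lay below every Control library, and without it the change was −3.73. Mycl, another MYC family gene, had 21.7, 15.3 and 20.003 CPM in HSP90i libraries and was near the floor of detection in Control libraries at 0.235, 0.342 and 0.0835 CPM (6.37 ± 0.30). The MYC antagonists rose: Mxd1 had 85.8, 73.3 and 88.3 CPM in HSP90i libraries and 20.2, 23.6 and 21.0 CPM in Control libraries (1.94 ± 0.10), and Mxd4 had 433, 339.9 and 399 CPM in HSP90i libraries and 144, 149 and 151 CPM in Control libraries (1.40 ± 0.09). Odc1, a polyamine enzyme gene and MYC target, fell (−2.37 ± 0.17). Over the list 7 of 16 rose (43.75%) and 8 fell (50%), against 36.5% and 36.6% of all tested genes.

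STAT5 is the other arm below cytokine receptors, and its targets did not move as one. Of 14 tested members 6 rose (42.9%), 3 fell (21.4%) and 5 were not called, against 36.5% higher and 36.6% lower of all tested genes. Cish, a direct STAT5 feedback inhibitor, had 8.21, 7.15 and 9.04 CPM in HSP90i libraries and 3.35, 2.31 and 3.84 CPM in Control libraries (1.35 ± 0.19). Ccnd2, the D cyclin of many blood cells, had 58.6, 70.4 and 63.0 CPM in HSP90i libraries and 171, 155 and 145 CPM in Control libraries (−1.30 ± 0.09), and Id1 fell (−2.28 ± 0.21). The kinase gene Pim1 had 46.6, 46.1 and 41.2 CPM in HSP90i libraries and 50.2, 48.0 and 46.8 CPM in Control libraries and was not called (edgeR adjusted p = 0.218). Of 16 immediate early genes 6 rose (37.5%) and 5 fell (31.25%), near the 36.5% and 36.6% of all tested genes. Nr4a1, a nuclear receptor gene, changed by −3.18 ± 0.30 and Fosl2, an AP-1 gene, by 1.20 ± 0.14. Egr1 (−0.59, edgeR adjusted p = 0.258) and Fos (−0.22, 0.619) were among those not called. The STAT5 site (TTCNNNGAA, a palindrome) was in 9.55% of all RefSeq promoter windows (defined above), 8.37% of those of tested genes and 4 of 11 windows (36.4%) of the STAT5 list, of which 3 genes rose and 1 was not called.

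**Figure D3:**
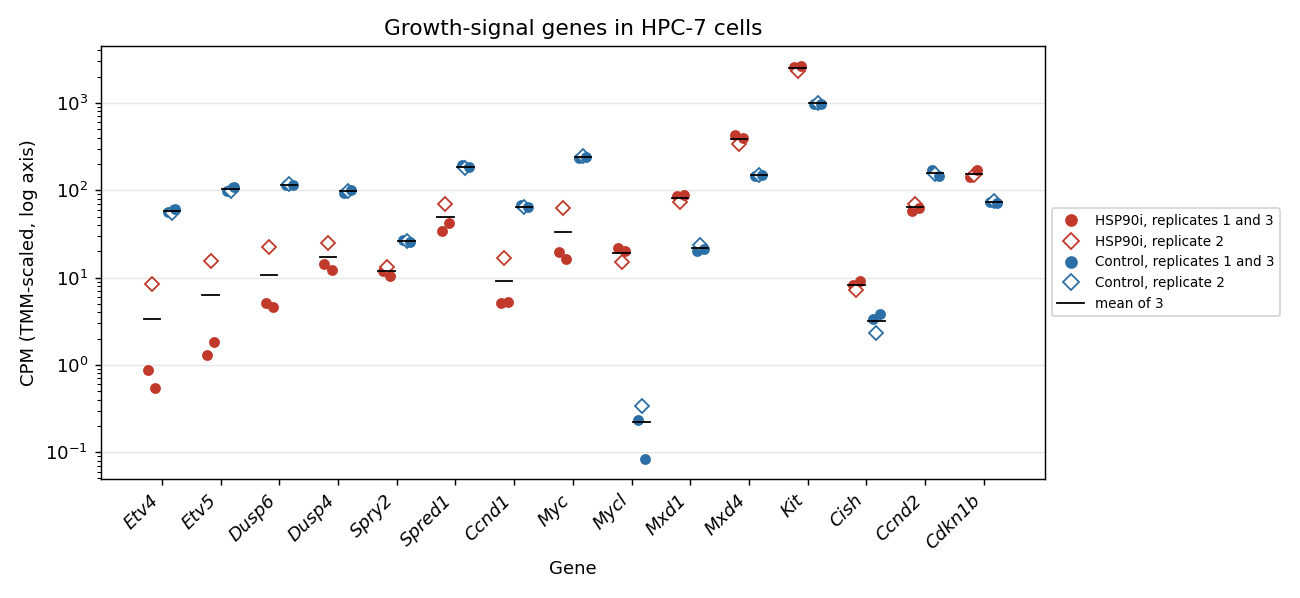
CPM on a log axis of genes of the ERK, MYC and cyclin groups and of Kit in 3 HSP90i libraries (red) and 3 Control libraries (blue), with open diamonds for replicate 2 and bars for the mean of 3. The HSP90i diamonds of Etv4, Etv5, Dusp6, Ccnd1 and Myc lie between the other treated libraries and the Control libraries.

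Cell division genes fell almost without exception. Of 48 tested genes of G1/S and DNA replication 48 fell, with a median log2 fold change of −2.35. In single libraries that median difference from the Control mean was −2.87, −1.75 and −2.80 in HSP90i replicates 1, 2 and 3. Gins2, a subunit of the replicative helicase, had 6.83, 14.2 and 7.12 CPM in HSP90i libraries, against 58.9, 61.3 and 71.0 CPM in Control libraries (−2.79 ± 0.22, edgeR adjusted p = 2.84e-06). Mcm7, another helicase subunit, had 174, 228 and 161 CPM in HSP90i libraries and 529, 532 and 560.5 CPM in Control libraries (−1.53 ± 0.12). The origin gene Orc6 fell (−1.36 ± 0.10) and E2f8, a repressor of the same programme, fell too (−1.27 ± 0.09). Tk1, the thymidine kinase gene of S phase, had 4.14, 20.7 and 3.56 CPM in HSP90i libraries and 129.9, 133 and 146 CPM in Control libraries (−3.90 ± 0.46, or −5.14 without HSP90i replicate 2).

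Mitotic genes followed. Of 53 tested members 52 fell and 1 rose (median −2.001). Plk1, a mitotic kinase gene, had 24.1, 27.9 and 20.8 CPM in HSP90i libraries and 87.3, 94.2 and 97.9 CPM in Control libraries (−1.94 ± 0.11). The kinase gene Aurka (−1.32 ± 0.08), the ubiquitin enzyme gene Ube2c (−1.35 ± 0.09) and Cdca3 (−2.44 ± 0.13) fell without overlap between the groups. The member that rose, Cenpa, encodes the histone H3 variant of centromeres. It had 229, 193 and 208 CPM in HSP90i libraries and 145, 148 and 158 CPM in Control libraries (0.48 ± 0.08, edgeR adjusted p = 0.000345), and is named after its values were seen. Of 15 genes of D cyclins, their partners and the brakes on division, 5 rose (33.3%) and 8 fell (53.3%). Of all tested genes 36.5% rose and 36.6% fell. Cdkn1b, the gene of p27, had 140.2, 151 and 169 CPM in HSP90i libraries and 74.3, 74.7 and 71.2 CPM in Control libraries (1.06 ± 0.08), Cdkn1a rose by 1.23 ± 0.11 and the pocket protein gene Rbl2 by 0.69 ± 0.07, whereas Cdkn2c fell (−1.55 ± 0.14). Of 8 tested replication-dependent histone genes 3 rose and 3 fell (37.5% each), near the shares of all tested genes. Most of these histone transcripts lack the poly(A) tail that many RNA-seq kits select.

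Promoters of the division genes were searched for their textbook elements, both chosen after the data were seen. An E2F site (TTTCGCGC or TTTGGCGC, both strands) was in 0.929% of all windows and 2.01% of those of tested genes. It was in 13 of 39 windows (33.3%) of the replication list, and all 13 genes fell, as did all 48 tested members. The cell cycle homology region of mitotic promoters (TTTGAA, both strands) was in 20.2% of all windows and 13.8% of those of tested genes. It was in 33 of 43 windows (76.7%) of the mitotic list, of which 32 genes fell and 1 rose, where 52 of 53 tested members fell. The direction of the holders is thus that of the lists, and is no test of either element. Mcm7 (chr5:138171834-138172133, minus strand) and Plk1 (chr7:122159185-122159484, plus strand) are shown in gene orientation, with the match in capitals from base 17 in Mcm7 and from base 31 in Plk1, counted from the start of the gene as base 1.
Mcm7: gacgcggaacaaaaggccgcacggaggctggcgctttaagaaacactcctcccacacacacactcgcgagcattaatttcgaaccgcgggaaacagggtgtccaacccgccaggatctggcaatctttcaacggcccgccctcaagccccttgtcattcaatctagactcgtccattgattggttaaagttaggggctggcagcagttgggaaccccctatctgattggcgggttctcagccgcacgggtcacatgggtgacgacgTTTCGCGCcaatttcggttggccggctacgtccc
Plk1: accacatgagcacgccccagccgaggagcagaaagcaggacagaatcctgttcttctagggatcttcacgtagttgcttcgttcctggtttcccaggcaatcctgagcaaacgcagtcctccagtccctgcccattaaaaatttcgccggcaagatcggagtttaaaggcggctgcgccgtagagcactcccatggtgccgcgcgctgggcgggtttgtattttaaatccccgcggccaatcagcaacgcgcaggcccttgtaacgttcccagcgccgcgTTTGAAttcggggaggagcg

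Genes that build ribosomes, nucleotides and sterols fell together with those of division. All 30 tested genes of ribosome biogenesis and RNA polymerase I fell (median −1.46). The methyltransferase gene of the nucleolus, Fbl, had 58.0, 79.9 and 55.4 CPM in HSP90i libraries and 206, 211 and 228 CPM in Control libraries (−1.74 ± 0.13), Nop16 fell (−1.67 ± 0.11) and so did Nop2 (−1.59 ± 0.12). The E-box that MYC binds (CACGTG, a palindrome) was in 8.09% of all promoter windows and 12.1% of those of tested genes. It was in 7 of 26 windows (26.9%) of this list, and the 7 genes fell, as did all 30 tested members. In the autophagy and lysosome list, where most members rose, the E-box was in 6 of 20 windows (30%). Of those genes 4 rose and 2 were not called. The ribosomal proteins themselves moved little: of 75 tested genes 16 rose, 7 fell and 52 were not called (median 0.091), with Rps27 at 0.52 ± 0.10 and Rpl3 at −0.32 ± 0.07. Their counts depended on single libraries: 8 rose without Control replicate 1 or 2, and 11 fell without HSP90i replicate 1 and 4 without Control replicate 3. Ribosomal protein genes have many processed copies, so reads can be split and these values are uncertain. Of 21 genes of purine and pyrimidine synthesis 18 fell and 2 rose (median −1.72), and 1 rose when any library but Control replicate 3 was left out. Ppat, the entry enzyme of purine synthesis, had 26.2, 48.0 and 31.4 CPM in HSP90i libraries and 154, 146 and 147 CPM in Control libraries (−2.09 ± 0.18), and Impdh2, the committed step to guanine nucleotides, had 104, 134 and 106 CPM in HSP90i libraries and 364, 387 and 421 CPM in Control libraries (−1.77 ± 0.11).

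All 24 tested genes of cholesterol synthesis and uptake fell (median −1.91). They are targets of the factor SREBP2, which cells activate when sterols run low. Fdps, the farnesyl diphosphate synthase gene, had 16.6, 24.4 and 16.9 CPM in HSP90i libraries, against 151, 150.4 and 150.3 CPM in Control libraries (−2.97 ± 0.13, edgeR adjusted p = 1.77e-07). Cyp51, a sterol demethylase gene, had 14.7, 22.3 and 15.0 CPM in HSP90i libraries and 129.7, 123 and 129.9 CPM in Control libraries (−2.89 ± 0.14). Insig1, a sterol sensor gene that SREBP itself raises, fell (−1.67 ± 0.10). Scd1, a fatty acid desaturase gene outside this list and among the 10 genes with the largest decrease, had 0.363, 1.47 and 0.639 CPM in HSP90i libraries and 16.3, 14.1 and 14.9 CPM in Control libraries (−4.26 ± 0.28, or −4.94 without HSP90i replicate 2). In these 4 genes the groups did not overlap, as in 77.4% of all tested genes, and for Scd1 this was a condition of its choice. HSP90i replicate 2 was the highest treated library in each.

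Glycolysis and hypoxia genes had 15 of 22 lower and 3 higher (median −1.06). Pkm, the pyruvate kinase gene, had 355, 381 and 320.2 CPM in HSP90i libraries and 896, 912 and 1024 CPM in Control libraries (−1.42 ± 0.09), Pgam1 fell (−1.38 ± 0.09) and Ldha, which turns pyruvate to lactate, did as well (−1.35 ± 0.09). Of iron genes, the transferrin receptor gene Tfrc had 27.3, 73.4 and 33.6 CPM in HSP90i libraries and 389, 393 and 394 CPM in Control libraries (−3.14 ± 0.30, edgeR adjusted p = 7.73e-06), and the iron transporter gene Slc11a2 fell (−0.92 ± 0.09). The ferritin light chain gene Ftl1 had 2045, 1572 and 1828 CPM in HSP90i libraries and 765, 871 and 934 CPM in Control libraries (1.08 ± 0.11), and Hmox1, which releases iron from haem, rose by 3.14 ± 0.22. Slc40a1, the iron exporter gene and chosen after its values were seen, had 1.45, 1.67 and 1.92 CPM in HSP90i libraries and 0, 0.171 and 0.250 CPM in Control libraries (3.65 ± 0.53, or 2.91 without Control replicate 1 and 4.39 without Control replicate 3). The ferritin heavy chain gene Fth1 had 511, 452 and 436 CPM in HSP90i libraries and 357, 412 and 448 CPM in Control libraries, which overlap, and was not called (0.20, edgeR adjusted p = 0.0836). The iron list as a whole had 7 of 15 higher (46.7%) and 4 lower (26.7%, median 0.20), against 36.5% and 36.6% of all tested genes. Ftl1 has near-identical copies in the genome, so its counts can be split and are uncertain.

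**Figure D4:**
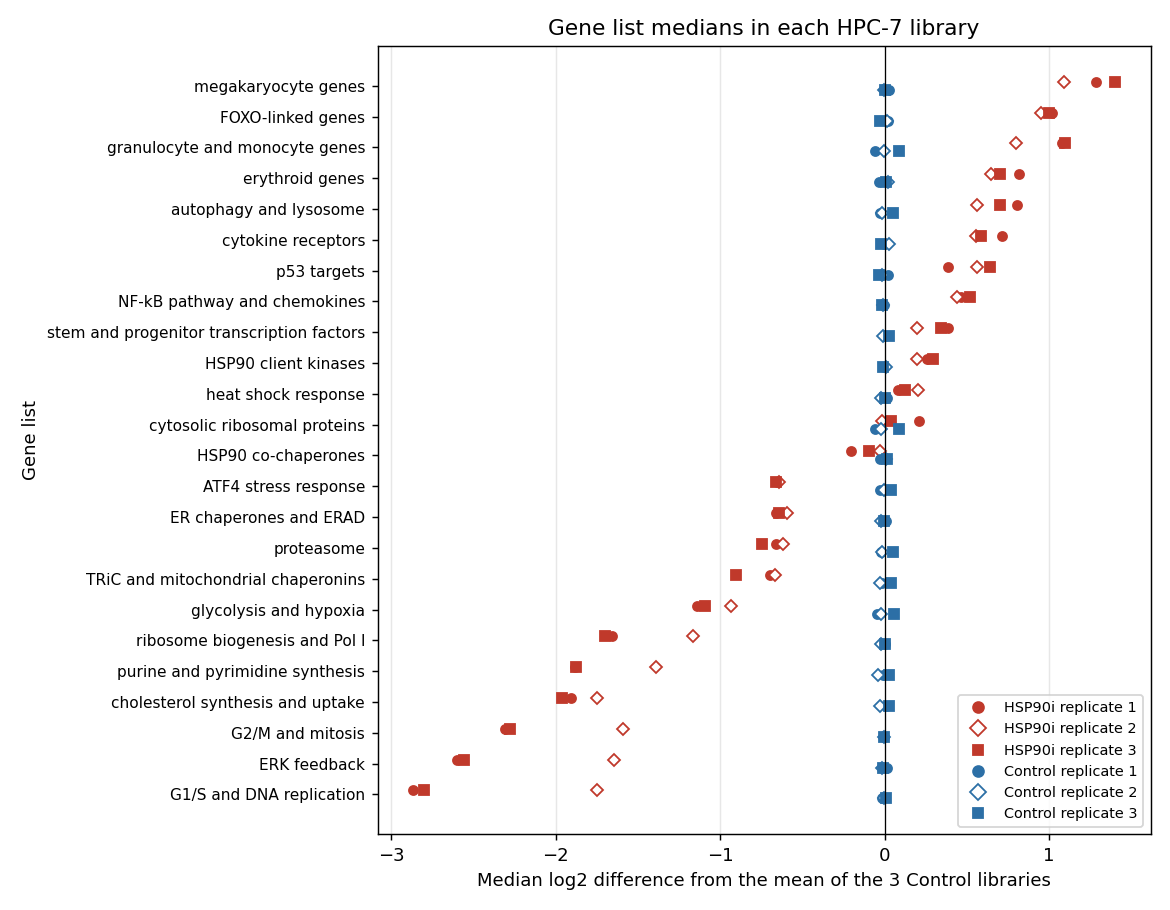
Median over the tested members of each list of the log2 difference from the mean of the 3 Control libraries, for each HSP90i library (red) and each Control library (blue). HSP90i replicate 2 (open red diamond) lies nearer to 0 than the other treated libraries in the lists of replication (−1.75), ERK feedback (−1.65) and mitosis (−1.59), and close to them in the ATF4 and ER chaperone lists.

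FOXO-linked genes, which AKT signalling keeps low, were mostly higher. Of 26 tested members 20 rose and 4 fell (median 1.04). Pik3ip1, an inhibitor of PI3 kinase, had 265, 192 and 247 CPM in HSP90i libraries, against 32.4, 34.0 and 32.7 CPM in Control libraries (2.83 ± 0.12, edgeR adjusted p = 1.3e-07). Sesn3, a sestrin gene, had 69.3, 58.5 and 81.7 CPM in HSP90i libraries and 12.8, 12.7 and 12.1 CPM in Control libraries (2.47 ± 0.13). Fbxo32, a ubiquitin ligase gene of wasting muscle, had 62.7, 50.1 and 59.4 CPM in HSP90i libraries and 15.1, 12.8 and 13.3 CPM in Control libraries (2.06 ± 0.11). Ccng2, an atypical cyclin gene, rose by 1.49 ± 0.07 and Txnip, which limits glucose uptake, by 1.46 ± 0.08. All HSP90i libraries lay above all Control libraries in these 5 genes.

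Among 29 tested genes of autophagy and lysosomes 22 rose and 0 fell (median 0.69). Ulk1, the kinase gene that starts autophagy, had 319, 265 and 292 CPM in HSP90i libraries and 96.7, 103 and 108 CPM in Control libraries (1.51 ± 0.08). The cargo receptor gene Sqstm1 had 431, 336 and 389 CPM in HSP90i libraries and 133, 134 and 143 CPM in Control libraries (1.49 ± 0.09), and Map1lc3b, which coats the autophagosome, rose by 1.27 ± 0.08. Mcoln1, the gene of the lysosomal calcium channel, had 124, 108 and 116 CPM in HSP90i libraries and 49.9, 50.5 and 47.2 CPM in Control libraries (1.24 ± 0.08). The site of the lysosomal factors TFEB and TFE3, an E-box with T before and A after it (TCACGTGA, a palindrome), was chosen after the data were seen and holds the plain E-box within it. It was in 1.12% of all windows, 2.35% of those of tested genes and 5 of 20 windows (25%) of this list, of which 4 genes rose and 1 was not called. The window of Ctsd, the gene of the lysosomal protease cathepsin D, is shown in gene orientation with the match in capitals, starting 99 bases before the start (chr7:142387778-142388077, minus strand). Ctsd, chosen after its values were seen, had 731, 611 and 682 CPM in HSP90i libraries and 387, 407 and 450.4 CPM in Control libraries (0.70 ± 0.09).
Ctsd: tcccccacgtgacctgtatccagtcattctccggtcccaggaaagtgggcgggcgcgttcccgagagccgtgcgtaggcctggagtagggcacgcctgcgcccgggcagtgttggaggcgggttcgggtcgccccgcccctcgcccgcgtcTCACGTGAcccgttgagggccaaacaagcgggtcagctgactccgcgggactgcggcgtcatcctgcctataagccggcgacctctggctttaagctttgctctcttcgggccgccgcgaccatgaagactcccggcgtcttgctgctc

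Death regulators moved in both directions. BMF, BIM and PUMA are BH3-only proteins that trigger apoptosis by binding BCL2 and its relatives. Bmf had 32.9, 25.2 and 31.6 CPM in HSP90i libraries and was near the floor in Control libraries at 0.235, 0.684 and 0.584 CPM (5.97 ± 0.25, edgeR adjusted p = 1.26e-07). Bcl2l11, the gene of BIM, had 48.8, 43.5 and 45.3 CPM in HSP90i libraries and 21.9, 24.4 and 21.7 CPM in Control libraries (1.02 ± 0.09), and Bbc3, the gene of PUMA, rose by 1.90 ± 0.16. The survival gene Bcl2 had 24.6, 37.8 and 28.2 CPM in HSP90i libraries and 86.6, 83.4 and 76.8 CPM in Control libraries (−1.45 ± 0.14), and the death genes Bid (−1.08 ± 0.11) and Bak1 (−0.64 ± 0.09) fell. Over the BCL2 family 4 of 11 rose (36.4%), 4 fell (36.4%) and 3 were not called. These shares are close to those of all tested genes (36.5% higher and 36.6% lower). Of 16 p53 targets 11 rose and 2 fell (median 0.54), with Trp53inp1, an inducer of autophagy and death, at 257, 344 and 422 CPM in HSP90i libraries and 33.0, 31.0 and 31.2 CPM in Control libraries (3.42 ± 0.16), and the p53 ligase gene Mdm2 at 0.89 ± 0.07.

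Genes of blood lineages changed too. In bulk RNA, fewer or more cells of a type and less or more RNA per cell cannot be told apart. Megakaryocyte genes had 20 of 21 higher and 1 lower (median 1.27), against a background of 36.5% higher. Itga2b, the CD41 integrin gene of platelets and early progenitors, had 1095, 884 and 967 CPM in HSP90i libraries and 297, 299 and 322 CPM in Control libraries (1.68 ± 0.09, edgeR adjusted p = 4.07e-07). Its partner Itgb3 had 1111, 795 and 1034 CPM in HSP90i libraries and 317, 306 and 306 CPM in Control libraries (1.66 ± 0.11). Vwf, the von Willebrand factor gene, had 194, 121 and 173 CPM in HSP90i libraries and 26.9, 26.6 and 25.8 CPM in Control libraries (2.62 ± 0.16). These 3 genes did not overlap between the groups, and HSP90i replicate 2 was the lowest treated library in each. The list member that fell was Pf4, a chemokine gene of platelet granules, with 144, 142 and 119.7 CPM in HSP90i libraries and 306, 299.8 and 307 CPM in Control libraries (−1.17 ± 0.08). The 5 megakaryocyte markers summed to 1129 to 1369 CPM in HSP90i libraries, against 653 to 688 CPM in Control libraries.

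Of 19 tested erythroid genes 11 rose and 4 fell (median 0.72), and 39 were on the list. Kel, a blood group gene, had 10.97, 9.90 and 9.50 CPM in HSP90i libraries and 1.76, 1.45 and 1.84 CPM in Control libraries and rose by 2.58 ± 0.17, with no overlap between the groups. Bpgm, a red cell enzyme gene, fell (−1.19 ± 0.08). The 5 erythroid markers found in the table summed to 14.8 to 17.4 CPM in HSP90i libraries and 3.76 to 4.62 CPM in Control libraries, with the globin genes and Alas2 at or near 0 as above.

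Granulocyte and monocyte genes had 10 of 16 tested members higher and 1 lower (median 1.03). Itgam, the CD11b integrin gene, had 172, 148 and 183 CPM in HSP90i libraries and 27.5, 26.9 and 24.5 CPM in Control libraries (2.67 ± 0.10, edgeR adjusted p = 8.22e-08). The Fc receptor gene Fcgr3 rose by 1.37 ± 0.08 and the lysozyme gene Lyz2 by 1.05 ± 0.09. The member that fell, named after its values were seen, was the monocyte chemokine receptor gene Ccr2 (−0.95 ± 0.16). Mpo, the myeloperoxidase gene of early granulocytes, had 1091, 1206 and 1019 CPM in HSP90i libraries and 1109, 1096 and 1208 CPM in Control libraries and was not called (edgeR adjusted p = 0.666). The 7 markers of this lineage summed to 1051 to 1235 CPM in HSP90i libraries and 1112 to 1225 CPM in Control libraries, nearly all of it from Mpo.

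Mast cell and basophil genes had 4 of 12 higher (33.3%) and 5 lower (41.7%), near the 36.5% and 36.6% of all tested genes. Cd200r3 (−1.92, edgeR adjusted p = 5.01e-05), Il1rl1 and Srgn were among those that fell. Slc18a2, the transporter that loads histamine and serotonin into granules, had 842, 894 and 1069.6 CPM in HSP90i libraries, against 81.4, 84.1 and 81.4 CPM in Control libraries (3.51 ± 0.10, edgeR adjusted p = 5.63e-08). Hdc, which makes histamine, had 18.2, 17.3 and 19.0 CPM in HSP90i libraries and 4.53, 3.76 and 5.93 CPM in Control libraries (1.94 ± 0.16). The mast cell protease gene Cpa3 had 285, 353 and 329.8 CPM in HSP90i libraries and 301, 295 and 307 CPM in Control libraries and was not called (edgeR adjusted p = 0.301). The 5 markers of this lineage summed to 307 to 374 CPM in HSP90i libraries and 302 to 315 CPM in Control libraries, and the receptor gene Fcer1a had no count in any library. Whether cells of any of these lineages took a part in the changes was not tested.

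Of surface genes of stem cells and progenitors 7 of 13 were higher and 4 lower. Cd34, the sialomucin gene that marks progenitors, had 32.4, 101 and 36.7 CPM in HSP90i libraries and 339, 332 and 354 CPM in Control libraries (−2.60 ± 0.35, or −3.32 without HSP90i replicate 2). Cd48 had 90.9, 143 and 97.6 CPM in HSP90i libraries and 344, 339 and 350.4 CPM in Control libraries (−1.65 ± 0.15). Angpt1, the ligand of the TIE2 receptor, fell (−1.18 ± 0.14) and so did Cd93 (−0.94 ± 0.07). Every HSP90i library was below every Control library in these 4 genes. Among the members that rose were Kit, whose values stand above, and Itga2, an integrin gene, which had 54.3, 51.6 and 59.6 CPM in HSP90i libraries and 28.3, 28.9 and 28.6 CPM in Control libraries (0.95 ± 0.08) with no overlap.

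Of 33 transcription factor genes of stem and progenitor cells 19 rose and 9 fell (median 0.32). Runx1, a master factor of definitive blood, had 316, 296 and 316 CPM in HSP90i libraries and 131, 139.8 and 134 CPM in Control libraries (1.20 ± 0.07). Gata1, the factor of red cells and megakaryocytes, had 119.6, 86.6 and 111 CPM in HSP90i libraries and 22.99, 21.6 and 24.3 CPM in Control libraries (2.21 ± 0.12). Tal1, its partner, rose by 1.04 ± 0.07, and the TAL1 relative Lyl1 fell (−1.11 ± 0.09). The myocyte enhancer factor gene Mef2c rose by 1.63 ± 0.10. Gata2 had 357, 331 and 297 CPM in HSP90i libraries and 348, 359 and 369.8 CPM in Control libraries and was not called (edgeR adjusted p = 0.17).

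**Figure D5:**
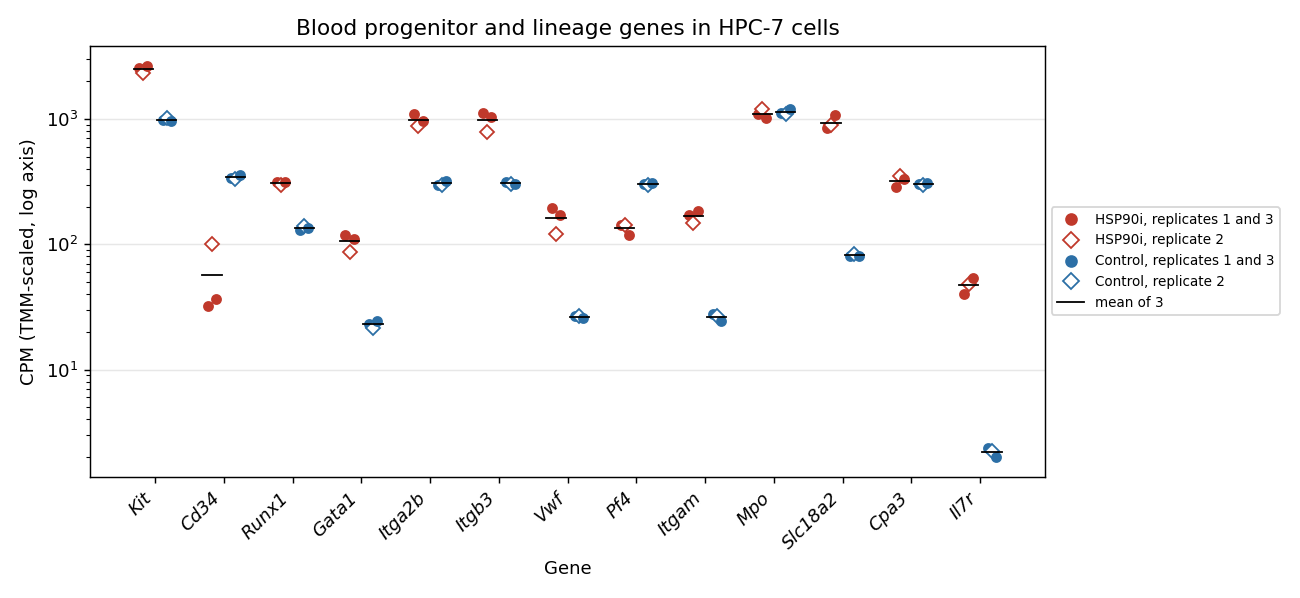
CPM on a log axis of progenitor and lineage genes in 3 HSP90i libraries (red) and 3 Control libraries (blue), with open diamonds for replicate 2 and bars for the mean of 3. Itga2b, Itgb3, Vwf, Gata1, Itgam, Slc18a2 and Il7r lie higher in HSP90i, Cd34 and Pf4 lower, and Mpo and Cpa3 overlap.

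Cytokine receptor genes had 15 of 22 higher and 4 lower (median 0.59). Il7r, the interleukin 7 receptor gene of lymphoid precursors and a FOXO1 target in lymphocytes, had 40.1, 48.0 and 53.7 CPM in HSP90i libraries, against 2.35, 2.22 and 2.003 CPM in Control libraries (4.41 ± 0.16, edgeR adjusted p = 7e-08). It made up most of the summed lymphoid markers, at 41.6 to 55.0 CPM in HSP90i libraries and 2.17 to 2.91 CPM in Control libraries, and the defining T cell gene Cd3e had no count. Csf2rb, the shared chain of the interleukin 3, interleukin 5 and GM-CSF receptors, had 146, 123 and 141 CPM in HSP90i libraries and 32.9, 33.8 and 33.0 CPM in Control libraries (2.04 ± 0.09). Its mouse duplicate Csf2rb2 changed by 2.94 ± 0.09, and reads can be split between these near-identical genes. Il6ra rose by 1.26 ± 0.09 and the interferon gamma receptor gene Ifngr1 by 1.10 ± 0.08.

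HCFC1 is a co-regulator that tethers histone methyltransferases and other enzymes to promoters. Hcfc1 had 476, 503 and 463 CPM in HSP90i libraries and 510.2, 578 and 570.0 CPM in Control libraries (−0.20 ± 0.07, edgeR adjusted p = 0.0322). That call was lost without HSP90i replicate 3 (edgeR adjusted p = 0.0944), without Control replicate 2 (0.128) and without Control replicate 3 (0.0969), in a range of 0.00915 to 0.128 over all alternatives but the 1.5-fold test. Ogt, the gene of the glycosyltransferase that cuts HCFC1, had 1553, 1647 and 1765 CPM in HSP90i libraries and 671, 699 and 642 CPM in Control libraries and rose by 1.30 ± 0.08. Over HCFC1 and its partners 4 of 24 rose and 13 fell (median −0.24), with Kmt2a, a histone methyltransferase gene, at 1.004 ± 0.07 and Dpy30, a subunit of the same complexes, at −1.17 ± 0.10.

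The 10 genes with the largest increases and decreases held several of the genes above. The others that rose were led by Ptpn14, a phosphatase gene, with 20.8, 17.9 and 20.6 CPM in HSP90i libraries and 0.0588, 0.0855 and 0.167 CPM in Control libraries (7.52 ± 0.26, edgeR adjusted p = 6.08e-08). Gpr183, an oxysterol receptor gene of immune cells, had 20.6, 17.0 and 19.5 CPM in HSP90i libraries and 0.353, 0 and 0 CPM in Control libraries (6.93 ± 0.38), so that all Control counts came from replicate 1 and the size of the fold rests on it. Colec11, a collectin gene, had 52.99, 40.0 and 54.1 CPM in HSP90i libraries and 0.294, 0.342 and 0.584 CPM in Control libraries (6.93 ± 0.23). Each of these was close to 0 in Control libraries and well above it in all HSP90i libraries. Muc6 rose by 5.86 ± 0.25, the coagulation factor gene F10 by 5.07 ± 0.31, the carboxypeptidase gene Cpz by 5.07 ± 0.15 and Fam174b by 4.80 ± 0.22.

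Among the largest decreases, Gem, a small GTPase gene, had 8.58, 38.8 and 11.4 CPM in HSP90i libraries and 306, 299 and 299 CPM in Control libraries (−3.98 ± 0.43, or −4.94 without HSP90i replicate 2). Cdc7, the kinase gene that fires replication origins, had 3.34, 19.99 and 3.56 CPM in HSP90i libraries and 127, 119.9 and 112 CPM in Control libraries (−3.80 ± 0.48, or −5.12 without that library). Parm1, a mucin-like gene, had 1.82, 2.55 and 2.65 CPM in HSP90i libraries and 31.0, 33.1 and 33.9 CPM in Control libraries (−3.82 ± 0.14). HSP90i replicate 2 kept clearly more Gem and Cdc7 than the other treated libraries, and was between them for Parm1. Rmi2 changed by −3.83 ± 0.40 (−5.15 without HSP90i replicate 2), Iqgap3 by −3.83 ± 0.38 (−4.75) and 2810417H13Rik by −3.70 ± 0.47 (−4.86).

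The response was set against that of MEF by the interaction of line and condition over 12 mouse libraries, in which line and dose (50 nM and 200 nM) cannot be told apart. Of 13720 genes tested, 5933 (43.2%) responded differently, 2445 with a higher response in HPC-7 (17.8%) and 3488 with a lower one (25.4%). The split depended on scaling and was 3090 higher and 2771 lower with the RLE factors of DESeq2. Without HPC-7 Control replicate 1, 2 or 3 the lower count was 2152, 2182 and 2139. The changes below come from a fit of each line alone and the differences from the joint fit, so they need not add up. Runx1, which rose in HPC-7 by 1.20, changed by −1.54 in MEF, a difference of 2.62 ± 0.10 (edgeR adjusted p = 7.57e-10). Parvb, an adhesion gene of the parvin family, changed by 2.82 in HPC-7 and −2.04 in MEF (difference 4.74 ± 0.18). Gnb4, a G protein subunit gene, changed by 1.06 in HPC-7 and −3.54 in MEF (difference 4.47 ± 0.14). Tspan13, a tetraspanin gene, changed by −0.78 in HPC-7 and 4.38 in MEF (difference −5.27 ± 0.21), and Parm1 by −3.82 in HPC-7 and 0.85 in MEF (difference −4.79 ± 0.18). The 12 genes with the smallest p in this test had responses of opposite sign in the 2 lines except for Tbc1d16, which rose in both.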

How the data were processed

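RNA-seq counts per gene were deposited by the authors in 1 table for each mouse line. The submitters' processing notes name Trim Galore, TopHat2 2.0.13, featureCounts, Picard and DESeq2, and the builds GRCm38 and mm10, with no step or role, and strand and annotation are not given in the sources used here. RNA was extracted with TRI-Reagent, per the labels' protocols.

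The unit is raw counts, as deposited by the authors, and 10131491 to 16859394 counts per HPC-7 library set the precision. HSP90i columns were mapped by name to the HSP90i labels and DMSO columns to the Control labels. Genes passing edgeR's filterByExpr were fitted with TMM factors and tested with edgeR 4.0.16's quasi-likelihood test (R 4.3.3), HSP90i over Control within HPC-7, with Benjamini-Hochberg adjustment at 0.05. The biological coefficient of variation was 0.0900. The line comparison is an interaction in the same kind of fit over 12 mouse libraries. Alternatives were other scalings and filters, DESeq2 1.42.0, limma 3.58.1 voom with sample weights, a threshold of 1.5-fold, a replicate block, a joint fit and leaving out each library. In counts simulated on 11564 HPC-7 genes the test recovered 83.58%, 98.48% and 100% of 1.5-, 2- and 4-fold changes. In the simulated interaction (13250 genes) it recovered 33.87%, 79.37% and 96.83%. Both simulations changed only 62 to 67 genes per fold and gave every gene and group the same spread, taken from HPC-7. In the real data most genes moved and treated libraries scattered more than Control libraries, so recovery there can differ.

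The genes named are, per direction, the 10 largest called changes without overlap at a mean log2 CPM of 3 or more, 14 fixed genes, up to 6 members per list with the smallest p, members said not to be called, the 3 most abundant markers per marker list, 6 interaction genes per sign, and genes said in the text to have been chosen or named after their values were seen. Members, the 40 gene lists and tests were chosen with earlier results of these data known. Gene names came from the count table, of whose 43626 identifiers 42462 were in the name table, and RefSeq positions and promoter windows (GRCm38.p6) were matched by symbol. Some items are not reported here.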

Additional observations from a re-analysis of the deposited data

Results flagged for a closer look

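The genes below were singled out because their responses differed between HPC-7 (50 nM) and MEF (200 nM) by the interaction test, 6 with the smallest p in each direction. Differences are HPC-7 minus MEF log2 fold changes, and line and dose cannot be told apart. Each kept its direction and its call in all of its alternatives, 204 values over the 12 genes.

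Responses were higher in HPC-7 for Parvb (difference 4.74 ± 0.18 SE), Gnb4 (4.47 ± 0.14), Ptpn22 (3.90 ± 0.16), Cyth3 (3.13 ± 0.12), Arhgef40 (2.88 ± 0.10) and Runx1 (2.62 ± 0.10). Ptpn22, a phosphatase gene of immune signalling, changed by 1.61 in HPC-7 and −2.41 in MEF. Cyth3, which activates ARF GTPases, changed by 1.73 in HPC-7 and −1.51 in MEF, and Arhgef40 by 1.35 in HPC-7 and −1.65 in MEF.

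Responses were lower in HPC-7 for Tspan13 (−5.27 ± 0.21), Parm1 (−4.79 ± 0.18), Itm2a (−3.79 ± 0.13), Nt5c3 (−3.32 ± 0.13), Add3 (−2.94 ± 0.08) and Tbc1d16 (−2.46 ± 0.10). Itm2a, a membrane protein gene, changed by −1.02 in HPC-7 and 2.66 in MEF, and Nt5c3, a nucleotidase gene, by −0.38 in HPC-7 and 2.83 in MEF. Add3, a gene of the membrane skeleton, changed by −0.26 in HPC-7 and 2.57 in MEF. Tbc1d16, a gene of a Rab GTPase activator, rose in both, by 0.56 in HPC-7 and 2.90 in MEF.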

How the results depend on the processing

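Counts of called genes, higher and lower, were 4312 and 4258 with RLE factors, 4237 and 4297 with library size alone, 4590 and 3999 with upper quartile factors (which moved the median by 0.05), 4496 and 4602 with no filter, 4225 and 4237 at 1 CPM, 4079 and 4089 with DESeq2, 4387 and 4342 with voom and 4428 and 4364 in the joint fit. Tested against 1.5-fold, 1968 rose and 2142 fell, as that test asks for more. Leaving out 1 library gave 3935 to 4358 higher and 3993 to 4423 lower. Deviations of same-numbered replicates correlated at 0.0064, 0.0235 and −0.0898, against −0.116 to 0.104 for differently numbered ones. With 3 libraries per group this cannot show whether the numbers pair the samples. The replicate block gave 4053 higher and 4076 lower.

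In the interaction, leaving out 1 library gave 2246 to 3343 higher and 2139 to 3711 lower (median difference −0.11), and the block 2263 and 3195. RLE factors gave 3090 and 2771, library size alone 2883 and 3020, DESeq2 3002 and 2644, and genes tested in both lines 3244 and 2425.

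List medians that moved by more than the spread between HSP90i libraries kept their sign, and the cause was not tested. With upper quartile factors they were −0.61 (ER chaperones), −0.59 (ATF4), 1.10 (FOXO), 0.26 (iron), 0.55 (NF-kB) and 0.30 (client kinases), with DESeq2 −0.66 (ATF4) and 0.19 (iron), and with voom 0.17 (iron). Leaving out 1 library gave −0.73 to −0.60 (ER chaperones), −0.66 to −0.65 (ATF4), 0.97 to 1.07 (FOXO), 0.12 to 0.25 (iron), 0.11 to 0.21 (interferon), 0.43 to 0.51 (NF-kB) and 0.19 to 0.28 (client kinases). The other 457 of 480 list medians moved less. Of genes not called, Mpo changed sign with upper quartile factors (0.013) and lay between −0.12 and 0.012 with 1 library left out, Lmo2 did so with upper quartile factors (0.0083) and lay between −0.11 and 0.0050, and Dnaja1 lay between −0.015 and 0.21. Depth limits genes near the floor, where 1 count is about 0.1 CPM.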

Other observations

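Immune and antioxidant genes also split. Of 19 tested interferon response genes 8 rose (42.1%) and 5 fell (26.3%, median 0.18), against 36.5% and 36.6% of all tested genes. Ddx58, the gene of the RNA sensor RIG-I, had 40.8, 37.3 and 46.9 CPM in HSP90i libraries, against 11.996, 13.2 and 12.9 CPM in Control libraries (1.72 ± 0.11, edgeR adjusted p = 8.83e-07), and Xaf1 rose by 1.62 ± 0.15. Of 17 genes of the NF-kB pathway and chemokines 9 rose and 3 fell (median 0.50). Il1b, the interleukin 1 beta gene, had 22.2, 16.3 and 19.2 CPM in HSP90i libraries and 3.23, 2.65 and 2.50 CPM in Control libraries (2.76 ± 0.17), and Tnfaip3, a brake on NF-kB, rose by 1.49 ± 0.11. Tnf had 0.509, 2.65 and 0.457 CPM in HSP90i libraries and 7.23, 5.90 and 7.18 CPM in Control libraries (−2.58 ± 0.43, or −3.79 without HSP90i replicate 2). Il1b and Tnf did not overlap between the groups.

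NRF2 targets of detoxification had 6 of 19 higher (31.6%) and 6 lower (31.6%, median 0.15), near the 36.5% and 36.6% of all tested genes. Gstm1, a glutathione transferase gene, had 51.8, 41.9 and 49.9 CPM in HSP90i libraries and 8.06, 10.4 and 10.8 CPM in Control libraries (2.31 ± 0.13), and Gclm, a subunit gene of glutathione synthesis, rose by 1.26 ± 0.08. Prdx1, a peroxiredoxin gene, had 103, 136 and 102 CPM in HSP90i libraries and 367, 355 and 391 CPM in Control libraries (−1.71 ± 0.11). For these 3 genes the groups did not overlap.

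The HSP90 forms and HSF genes, of which 8 were tested, had 2 higher and 5 lower (median −0.30), with 3 lower without Control replicate 1, without Control replicate 2 or with upper quartile factors. Of 11 tested mitochondrially encoded mRNAs 1 rose and 3 fell (median −0.23), and the medians of the HSP90i libraries 1 to 3 were −1.03, −0.16 and 0.32. The list median was 0.23 without HSP90i replicate 1, so its sign rests on that library. The count that rose was 4 without HSP90i replicate 1, 2 without HSP90i replicate 2 and 0 without HSP90i replicate 3 or any 1 Control library. mt-Nd1, a complex I subunit gene, had 1429, 2248 and 2000.4 CPM in HSP90i libraries and 3272, 3180.2 and 3457 CPM in Control libraries (−0.80 ± 0.14).

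Lymphoid genes had 2 of 4 tested members higher and 2 lower (median 0.34), with the surrogate light chain gene Vpreb1 at 2.62, 1.76 and 1.83 CPM in HSP90i libraries and 0.882, 0.684 and 0.835 CPM in Control libraries (1.37 ± 0.28) and the T cell kinase gene Lck at 0.509, 0.686 and 0.457 CPM in HSP90i libraries and 1.94, 1.88 and 1.59 CPM in Control libraries (−1.72 ± 0.28). Fibroblast and matrix genes had 1 of 4 tested members higher and 3 lower (median −0.65). Vim, the intermediate filament gene vimentin, which blood cells also express, had 167, 200.0 and 159 CPM in HSP90i libraries and 350.4, 365 and 391 CPM in Control libraries (−1.07 ± 0.09). For Vpreb1, Lck and Vim the groups did not overlap.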
